A study of Homo sapiens with 12 samples.

Results

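Antimir control and premir control are the reference oligos of a microRNA experiment in PANC-1, an established line of human pancreatic ductal adenocarcinoma cells. Their arrays were compared directly to see what differs between the control oligos. All cultures were grown in serum-containing DMEM and harvested 20 h after transfection of 1 of 4 oligos: antimir control, premir control, antimir-10b or premir miR-10b. The comparison uses the 3 arrays titled antimir control and the 3 titled premir control, 6 of the 12 arrays of the series, and all transcripts detected on at least 3 of those 6. Each group holds 3 biological replicates of 1 cell line, per the series' design text. No untransfected culture is among the 12 arrays, so a difference between the control oligos cannot be assigned to either of them.

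A premir is a synthetic small RNA duplex built like a processed microRNA precursor, which cells load into Argonaute proteins as they would their own microRNA. The guide strand then directs Argonaute to messenger RNAs that pair with its seed, and these messages are translated less and degraded faster. An antimir is a chemically modified single strand that binds a mature microRNA and keeps it from its targets. A control oligo of either class carries a sequence meant to match no known microRNA or target, but it passes through the same transfection, uptake and, for the duplex, the same Argonaute loading. The labels name neither the sequences nor the makers of the control oligos.

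Of 47231 probes, 19057 had a detection p under 0.05 on at least 3 of the 6 arrays, which gave 15571 features, 10934 with a gene symbol and 4637 without. Between 39.5% and 41.1% of probes were detected on each of the 6 arrays. Pairs of arrays correlated at 0.989 to 0.995 within antimir control, at 0.990 to 0.993 within premir control and at 0.980 to 0.993 between the groups. The keratins and other ductal markers were present: 6 of 7 passed the filter, and KRT18 averaged a normalized log2 signal of 8.19 ± 0.17 in antimir control and 7.86 ± 0.08 in premir control (SD, n = 3 each). Of markers of other cells, 1 of 9 fibroblast, 4 of 10 leukocyte, 1 of 7 endothelial, 2 of 8 acinar and 1 of 7 islet genes passed, and 0 of these 9 were called. The leukocyte genes PTPRC, CD3E and LYZ and the fibroblast genes DCN, LUM and PDGFRB did not pass. The fibroblast gene COL1A1 did pass, averaging 8.63 in antimir control and 8.77 in premir control, which is above KRT18. The leukocyte gene CD14 passed at 7.38 and 6.91. All values below are log2 of the background-corrected and quantile-normalized signal, and a difference is antimir control minus premir control, so each describes a gene relative to the other transcripts of the same array.

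Antimir control cultures had far more AXL, CHPF, WBP1L and TOR1A transcript than premir control cultures, from 2.92-fold to 5.22-fold, and smaller changes in both directions in some other genes. Limma called 99 of 15571 features at an adjusted p under 0.05, which is 0.636% of those tested. Of these, 56 (0.36%) were higher in antimir control and 43 (0.276%) were lower. Of the 56, 49 carry a symbol and 7 do not, and of the 43, 37 carry a symbol and 6 do not. The rises were larger than the falls: 13 features were called at 2-fold or more and all 13 were higher, with 0 lower, and the median difference was 0.84 among the features called higher and -0.68 among those called lower, beside 0.01 over all features. The arrays of the groups did not overlap in any of the 99, where this held for 20.8% of all features (11% with antimir control above and 9.85% below). The calls were made on these same arrays, so this separation largely follows from the choice and adds no support. It was also required of the genes named for the largest changes, and is given for them as description only. The count of calls depended on single arrays. It was 52 without antimir control replicate 1, 12 without antimir control replicate 2, and 25, 41 and 19 without premir control replicates 1, 2 and 3. With all 12 arrays normalized and fitted together 2 features were called, CHPF and SEC24C, and with the values as scaled by the authors 14, all higher.

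**Figure D1:**
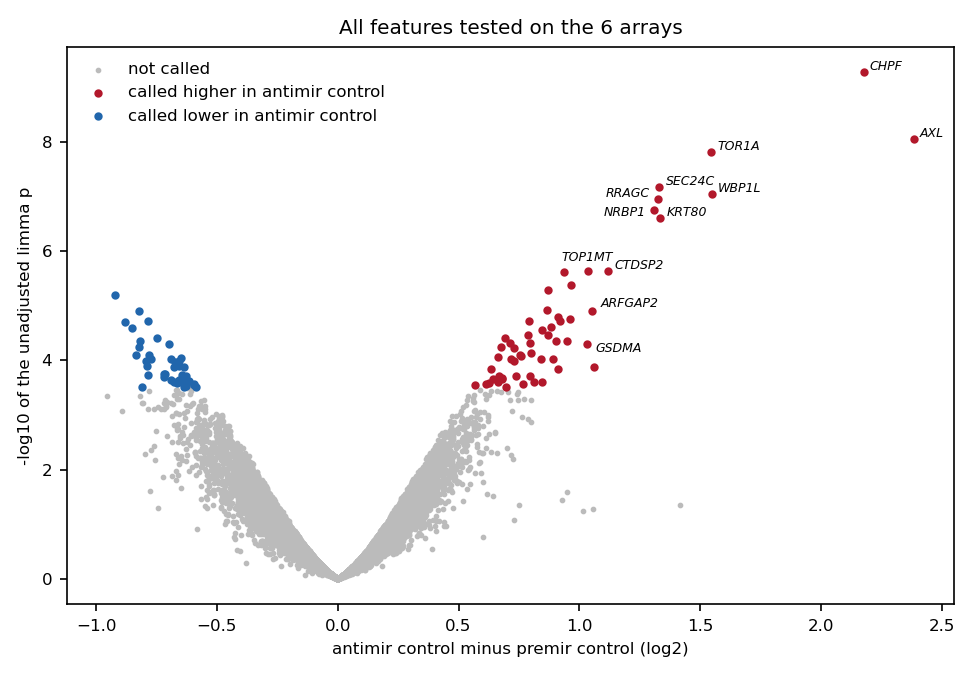
Difference between antimir control and premir control (x axis, log2, positive is higher in antimir control) against the negative log10 of the unadjusted limma p (y axis) for the 15571 features tested on the 6 arrays. Red points are the 56 features called higher, blue points the 43 called lower and grey points the rest. The named points are the genes called at 2-fold or more, all of them on the right side, while the falls end at -0.92.

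A surface receptor and an enzyme of surface proteoglycans led the rises. AXL, a receptor tyrosine kinase of the TAM family that is activated by the ligand GAS6, had signals of 11.09, 11.14 and 11.15 in antimir control against 8.62, 9.20 and 8.40 in premir control. The antimir control arrays lay close together and the premir control arrays, which were spread more widely, all lay far below them. The difference was 2.38 ± 0.17 (SE), or 5.22-fold, with a limma adjusted p of 6.91e-05, and another AXL probe differed by 2.00. CHPF, a factor that works with the chondroitin synthases in extending chondroitin chains on proteoglycans, had 8.73, 8.41 and 8.44 in antimir control against 6.38, 6.40 and 6.28 in premir control. The groups were separated by more than the whole spread of either. Its difference was 2.18 ± 0.13 (SE), or 4.52-fold, with the smallest adjusted p of all features, 8.36e-06.

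The promoters of these leading genes are shown because they carry the largest differences measured. They cover the 250 bases before the start of each gene in RefSeq's GRCh38.p14 table, read 5′ to 3′ on the gene's strand, at chr19:41218973-41219222 (plus strand) for AXL and chr2:219543810-219544059 (minus strand) for CHPF. Capitals mark GC boxes, searched as GGGCGG on both strands.
AXL: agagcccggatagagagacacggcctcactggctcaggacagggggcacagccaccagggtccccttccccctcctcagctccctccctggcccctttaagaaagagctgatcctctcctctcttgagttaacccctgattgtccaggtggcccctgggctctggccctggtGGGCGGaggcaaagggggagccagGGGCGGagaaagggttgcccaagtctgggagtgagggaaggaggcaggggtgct
CHPF: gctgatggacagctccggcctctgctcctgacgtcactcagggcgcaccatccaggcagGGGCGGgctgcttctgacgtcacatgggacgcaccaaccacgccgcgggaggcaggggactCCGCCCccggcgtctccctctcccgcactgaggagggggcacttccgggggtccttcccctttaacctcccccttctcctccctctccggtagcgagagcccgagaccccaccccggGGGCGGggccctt
The AXL window held 2 such boxes, starting 78 and 54 bases before the gene, and the CHPF window held 3, starting 191, 130 and 13 bases before it. GC boxes were present in 42 of 52 windows of the genes called higher (80.8%, over 40 of 49 genes matched to the table), in 30 of 39 windows of the genes called lower (76.9%, over 32 of 37 genes), in 63.3% of the windows of all genes tested and in 42.6% of all windows in the table. The median GC content of the windows ran in the same order, at 68.4%, 66.4%, 64.4% and 58.0%, and no difference between these shares was tested.

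KRT80, an epithelial keratin, had 10.58, 10.19 and 10.27 in antimir control against 8.93, 9.09 and 9.03 in premir control. Every antimir control array was above every premir control array. The difference was 1.33 ± 0.13 (SE), or 2.52-fold, with an adjusted p of 4.89e-04, and another KRT80 probe differed by 1.27. GSDMA, a gasdermin whose cleaved form makes pores in membranes, differed by 1.03, but it was detected on only 2 of the 3 premir control arrays. Another, dimmer probe of the gene differed by -0.02.

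SEC24C, TOR1A and ARFGAP2, which act in the endoplasmic reticulum and Golgi, were also among the largest rises. SEC24C, a subunit of the COPII coat that selects cargo leaving the endoplasmic reticulum, had 11.11, 11.29 and 11.12 in antimir control against 9.77, 9.87 and 9.88 in premir control. The groups were again fully separated. The difference was 1.33 ± 0.12 (SE), or 2.51-fold, with an adjusted p of 2.58e-04. TOR1A, an ATPase in the lumen of the endoplasmic reticulum and nuclear envelope, had 9.41, 9.46 and 9.28 in antimir control against 7.78, 7.96 and 7.78 in premir control. Its lowest antimir control array stood 1.32 above its highest premir control array, and the difference was 1.54 ± 0.12 (SE), or 2.92-fold (adjusted p 8.00e-05). ARFGAP2, which switches off the Golgi GTPase ARF1, differed by 1.05 ± 0.15 (SE), with an adjusted p of 0.0117. SFT2D2, a predicted vesicle transport gene, rose by 0.96 at its brightest probe, while another, dimmer probe differed by 0.03.

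SEC24C was the only called member of the list of 47 ER-Golgi coat and vesicle traffic genes. Of its 44 members that passed the filter, 1 rose, 0 fell and 43 were not called, beside 0.636% called over all features. The median difference was 0.03 beside 0.01 over all features. Its paralogs SEC24A, SEC24B and SEC24D differed by 0.23, -0.26 and -0.31, uncalled. ARF1 differed by 0.32 and the exocyst subunit EXOC3 by 0.41, both also uncalled, with antimir control arrays above all premir control arrays.

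The other large rises were in genes of varied roles. RRAGC, a Rag GTPase that passes the amino acid signal to mTORC1, had 10.02, 9.94 and 9.82 in antimir control against 8.50, 8.74 and 8.55 in premir control. No array of one group came near the other group. It rose 2.50-fold, by 1.32 ± 0.12 (SE), with an adjusted p of 2.96e-04. NRBP1, a pseudokinase adaptor, rose by 1.31 ± 0.12 (SE, adjusted p 3.93e-04). CTDSP2, a phosphatase of the small C-terminal domain family, rose by 1.12 ± 0.14 (SE, adjusted p 0.00342). WBP1L rose by 1.55 ± 0.14 (SE), or 2.92-fold, with signals of 9.42, 9.15 and 9.29 in antimir control against 7.73, 7.96 and 7.53 in premir control. TOP1MT, the topoisomerase of mitochondrial DNA, rose by 1.03 ± 0.13 (SE, adjusted p 0.00342), and its other probes differed by 1.06 and 0.45. UHRF1, which guides the copying of DNA methylation after replication, rose by 0.96 ± 0.12 (SE, adjusted p 0.0055). RDH11, a retinol dehydrogenase, rose by 0.95 ± 0.15 (SE), and another probe differed by 0.55.

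**Figure D2:**
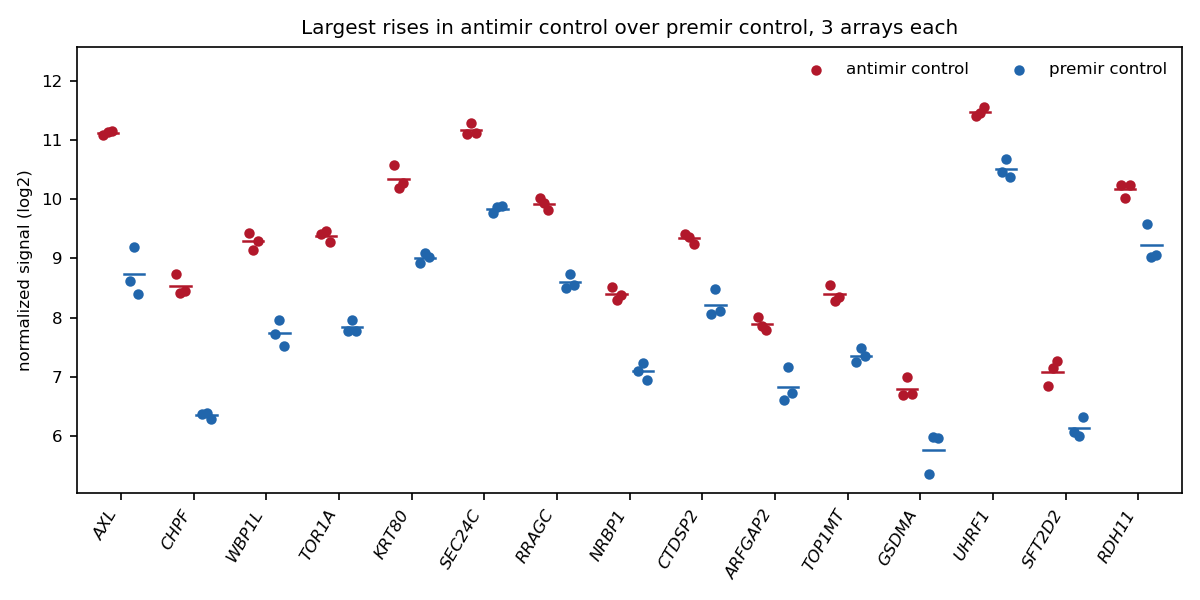
Normalized signal (y axis, log2) of the 15 genes with the largest called rises, with 1 point per array and a line at each group mean, red for the 3 antimir control arrays and blue for the 3 premir control arrays. In all 15 genes, as the rule for naming them required, the lowest red point lies above the highest blue point. The gap is 1.89 in AXL and 0.45 in RDH11.

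The genes that fell in antimir control did so by smaller amounts, between 1.55-fold and 1.90-fold for those named here. PGM2L1, which makes glucose 1,6-bisphosphate, had 7.56, 7.71 and 7.88 in antimir control against 8.60, 8.61 and 8.71 in premir control. All antimir control arrays were below all premir control arrays. The difference was -0.92 ± 0.12 (SE), or 1.90-fold lower, with an adjusted p of 0.00703. ANKRD52, a subunit of a protein phosphatase 6 complex that acts on Argonaute, had 6.39, 6.16 and 6.29 in antimir control against 7.36, 7.15 and 6.98 in premir control. The groups did not overlap, and the difference was -0.88 ± 0.13 (SE, adjusted p 0.0137). CPEB2, a protein that binds messages and controls their translation, differed by -0.85 ± 0.13 (SE), but by -0.06 at another, dimmer probe.

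FBXW7, which brings cyclin E and MYC to an SCF ligase, averaged 6.10 ± 0.12 in antimir control and 6.92 ± 0.06 in premir control (SD, n = 3 each). The groups did not overlap at this probe, where the difference was -0.82 ± 0.12 (SE, limma adjusted p 0.0117). The 2 other FBXW7 probes differed by -0.11 and 0.09, but were dimmer, averaging 5.42 and 5.61 in antimir control and 5.53 and 5.52 in premir control. RNF138, a ligase that acts at DNA breaks, fell by 0.79 ± 0.12 (SE), and LNX2, a ligase with PDZ domains, fell by 0.79 ± 0.14 (SE). Other falls were APAF1, the scaffold of the apoptosome (-0.75 ± 0.12, SE), CYP1B1, a cytochrome P450 induced through the aryl hydrocarbon receptor (-0.77 ± 0.14), and SPAST, which severs microtubules (-0.81 ± 0.16). FAM3C, a secreted factor, fell by 0.78 at one probe and differed by -0.79 at another. SYCP2, a protein of the meiotic synaptonemal complex, differed by -0.82 and -0.37 at its probes, and PROSER1 by -0.79 and -0.74. KCTD20, SLC35G1 and BBOF1, a basal body gene detected on 2 of the 3 antimir control arrays, had differences of -0.82, -0.79 and -0.72.

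**Figure D3:**
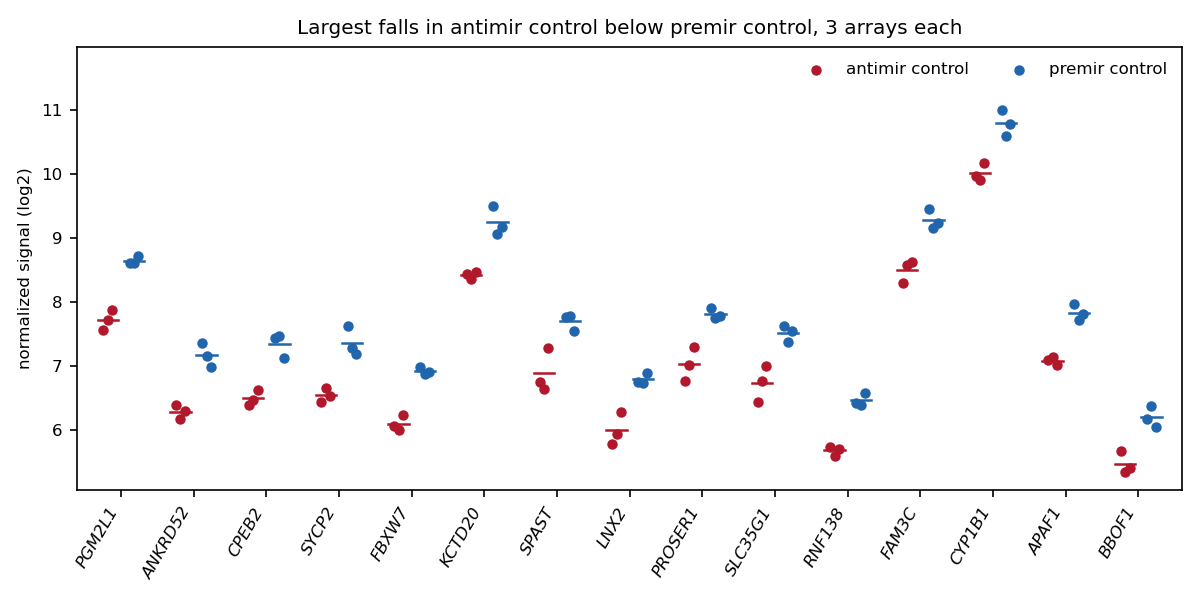
Normalized signal (y axis, log2) of the 15 genes with the largest called falls, with 1 point per array and a line at each group mean, red for the 3 antimir control arrays and blue for the 3 premir control arrays. All red points lie below all blue points of the same gene, as the rule for naming them required. The gap is 0.72 in PGM2L1 and 0.27 in SPAST.

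The machinery that senses foreign RNA and the genes induced by interferon were examined because a duplex RNA can trigger them. Limma called 0 of the 21 measured genes of RNA and DNA sensing (4 at an unadjusted p under 0.05), beside 0.636% of all features. Of the 21, 8 were higher and 13 lower in antimir control, with a median difference of -0.05. OAS3, which makes the second messenger that activates RNase L, differed by -0.57 ± 0.21 (SE, adjusted p 0.234), and RIGI, IFIH1 and EIF2AK2, sensors of duplex RNA, by -0.05, -0.27 and -0.23. TLR3, TLR7, TLR8 and TLR9 did not pass the filter. Of 37 measured interferon-induced genes 0 were called by limma (1 at an unadjusted p under 0.05), 28 were lower in antimir control and 9 higher, and the median was -0.12. The mean signal of that list was 8.79, 8.16 and 8.22 on antimir control replicates 1, 2 and 3 and 8.53, 8.94 and 8.08 on premir control replicates 1, 2 and 3. The groups overlapped: the highest array was premir control replicate 2 and the next highest antimir control replicate 1. The interferon median was 0.08 without premir control replicate 2, -0.34 without premir control replicate 3, -0.32 without antimir control replicate 1, and -0.03 and -0.01 without antimir control replicates 2 and 3. The sensing median turned positive, to 0.03 and 0.07, without antimir control replicate 2 or premir control replicate 2. It was -0.13 and -0.21 without antimir control replicate 1 or premir control replicate 3, and -0.01 without antimir control replicate 3.

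The genes that make, load and carry out the work of microRNAs held 1 call. Of 29 measured members 0 rose, 1 fell and 28 were not called, beside 0.636% called over all features, and the median was -0.04. The member that fell was DCP2, the enzyme that removes the cap of messages marked for decay, with 7.95, 8.32 and 8.40 in antimir control against 8.86, 8.93 and 9.03 in premir control and a difference of -0.72 ± 0.14 (SE, adjusted p 0.0444). AGO2, the Argonaute that can cut its target, differed by 0.52, and TNRC6B, the partner that recruits deadenylases to Argonaute, by -0.47; both were uncalled, with groups that did not overlap. DICER1, DROSHA, XPO5 and AGO1 had uncalled differences of -0.24, 0.16, 0.03 and -0.12. Among 22 measured genes described as miR-10b targets, E2F7, an E2F repressor of the cell cycle, fell by 0.63 ± 0.13 (SE, adjusted p 0.0474), 0 rose and 21 were not called. The median of these 22 was -0.04, and KLF4 had -0.36 and -0.87 at its probes. The limma p of KLF4 was 0.0506 unadjusted (0.325 adjusted) at the brighter probe and 0.00422 unadjusted at the other.

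Inflammatory and stress programmes each had at most 1 called gene, where 0.636% of all features were called. In the list of NF-kB feedback genes and chemokines 1 of 17 measured members rose and 0 fell, with a median of -0.09 (-0.02 without premir control replicate 2 and -0.13 without premir control replicate 1). CXCL1, a chemokine that attracts neutrophils, had 7.68, 7.24 and 7.35 in antimir control against 6.62, 6.72 and 6.53 in premir control. It rose by 0.80 ± 0.14 (SE), or 1.74-fold, with an adjusted p of 0.0276, and was called in 8 of 20 alternative settings. Its promoter is shown because, of 52 windows of the genes called higher, it alone (1.9%) held the NF-kB motif searched. That motif is GGGA and TTTCC with 1 base of any kind between them, on both strands. It was in 0.6% of the windows of all genes tested and 0.5% of all windows. Other motifs were searched too. The antioxidant response element was in 21.2% of windows of genes called higher, 10.3% of those called lower and 11.9% of those tested. For the same sets the CCAAT box was in 36.5%, 38.5% and 33.6%, and the TATA box in 1.9%, 10.3% and 6.0%. No difference between these shares was tested. The CXCL1 window at chr4:73869143-73869392 (plus strand, GRCh38.p14, RefSeq) is printed with the NF-kB match in capitals, 79 bases before the gene.
CXCL1: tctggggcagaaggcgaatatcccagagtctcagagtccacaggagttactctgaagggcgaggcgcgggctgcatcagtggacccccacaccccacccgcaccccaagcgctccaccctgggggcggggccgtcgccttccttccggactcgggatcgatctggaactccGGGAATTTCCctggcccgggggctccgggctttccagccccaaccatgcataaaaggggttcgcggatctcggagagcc
In the NRF2 and glutathione list TXNRD1, a thioredoxin reductase, rose by 0.73 ± 0.13 (SE, adjusted p 0.0292; another probe 0.63), and the other 19 measured genes were not called (median 0.07, but 0.00 without premir control replicate 1 and 0.15 without premir control replicate 2). In the zinc and metallothionein list SLC39A14, a zinc importer, rose by 0.85 ± 0.13 (SE, adjusted p 0.017), and 21 were not called (median -0.02). In the unfolded protein response DNAJB9, a co-chaperone of the endoplasmic reticulum, fell by 0.64 ± 0.12 (SE, adjusted p 0.0342), and 22 were not called (median 0.01). In the TGF-beta list BMPR2, a receptor for bone morphogenetic proteins, fell by 0.70 ± 0.12 (SE, adjusted p 0.0215; another probe -0.81), and 26 were not called (median -0.06). APAF1 was the only member of the apoptosis list called, of 24 measured (median -0.03).

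The cell cycle lists leaned in opposite directions with 1 call between them, where 0.636% of all features were called. In RNA from whole cultures fewer cells in a phase and less RNA per cell cannot be told apart. Of 36 measured genes of G2 and mitosis 0 were called by limma (10 lower and 2 higher at an unadjusted p under 0.05), 25 were lower in antimir control and 11 higher, and the median was -0.20. In 10 of the 36 all antimir control arrays were below all premir control arrays and in 3 all were above, beside 9.85% and 11% of all features. TTK, a kinase of the spindle checkpoint, had 9.14, 9.17 and 9.42 in antimir control against 9.95, 9.79 and 9.70 in premir control, a difference of -0.57 ± 0.13 (SE, adjusted p 0.0709). TOP2A, the topoisomerase that untangles chromosomes, differed by -0.41 ± 0.11 (SE, adjusted p 0.134), whereas FOXM1 and BIRC5 had 0.41 each, uncalled. The mean of the list was 10.29, 10.31 and 10.33 on the antimir control arrays against 10.49, 10.52 and 10.36 on the premir control arrays. These list means did not overlap, although premir control replicate 3 lay close to the antimir control arrays. Of 41 measured genes of S phase and DNA replication UHRF1 rose and 40 were not called; 30 were higher in antimir control and 11 lower, and the median was 0.13. The median was 0.04 with the values as scaled by the authors. CDT1, which licenses replication origins, differed by 0.62, and E2F1, a transcription factor of S phase genes, by 0.46, both uncalled. The 14 measured histone genes had a median of 0.01 and 0 limma calls (1 at an unadjusted p under 0.05). In antimir-10b against premir miR-10b, without premir miR-10b replicate 2, the list medians were 0.16 for G2 and mitosis and 0.00 for S phase. The lean of the control pair was thus not seen in that pair.

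KRT80 and AXL were also the only called members of their lists for epithelial state (19 measured, median 0.06) and mesenchymal state (20 measured, median -0.01). VIM, the mesenchymal filament gene, differed by -0.08, NT5E by -0.36 and CCN2, a matrix-associated growth factor, by 0.44, all uncalled. Over all features 0.636% were called. Limma called 0 members of the 15 functional lists not yet described, where 0 (ribosomal proteins) to 9 (p53 targets) had an unadjusted p under 0.05. They were endosome and lysosome (36 measured, median 0.05), autophagy (21, 0.03), cholesterol and fatty acid synthesis (28, 0.05), p53 targets (22, 0.01), the ATF4 response (31, 0.08), heat shock (19, 0.00), hypoxia and glycolysis (32, 0.08), cytosolic ribosomal proteins (67, 0.02), the respiratory chain (70, 0.02), matrix proteases (15, 0.01), EGF receptor and ERK output (21, -0.05), immediate-early genes (22, -0.03), HOX genes (17, 0.01), the proteasome (29, -0.06) and splicing (29, 0.01). Leaving out 1 array moved these 15 medians within -0.09 and 0.16 and changed the sign of 10, so their signs are not read. That of cholesterol and fatty acid synthesis was -0.07 without antimir control replicate 1 and -0.03 without premir control replicate 3, and that of the ATF4 response was 0.16 without premir control replicate 2 and 0.04 without premir control replicate 3. The proteasome list had 10 of 29 members with all antimir control arrays below and 2 with all above, beside 9.85% and 11% of all features. PSMA2, a subunit of the outer core ring, had the largest difference of the list, -0.69 ± 0.16 (SE, adjusted p 0.0852), and PSMA3, another subunit of that ring, had -0.44 (adjusted p 0.123) and -0.19 at another probe. MCOLN1, a lysosomal cation channel, had 0.57 ± 0.13 (SE, adjusted p 0.087). The ductal markers had differences from 0.05 (KRT8) to 0.32 (KRT18), a median of 0.14 and 0 limma calls (1, KRT18, at an unadjusted p under 0.05). The acinar genes CEL and AMY2A were detected on 3 premir control arrays and on 0 antimir control arrays, and were at least 1.07-fold and 1.06-fold lower in antimir control, uncalled. Both passed the filter only through premir control, so their direction follows from the filter.

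**Figure D4:**
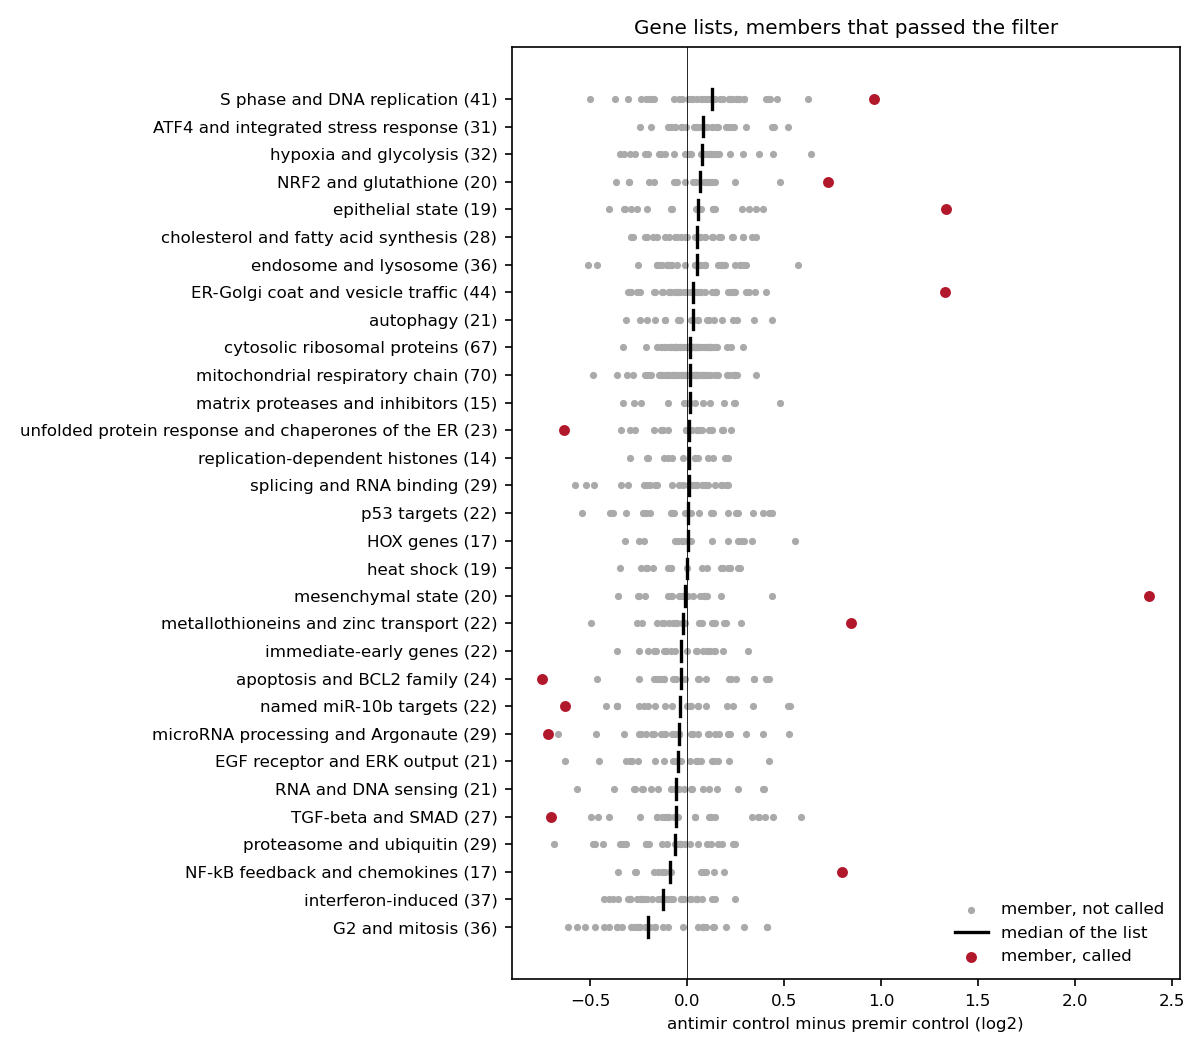
Difference between antimir control and premir control (x axis, log2, positive is higher in antimir control) of every measured member of the 31 functional gene lists, 1 row per list with the number of members in brackets. Grey points are members not called, red points members called and black bars list medians, which all lie between -0.20 and 0.13 while AXL stands at 2.38.

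The contrast of antimir class and premir class can also be read from the other arrays, antimir-10b against premir miR-10b, which share no array with the control pair but in which miR-10b itself was inhibited or added. With all 6 of those arrays limma called 0 of 15533 features (250 at an unadjusted p under 0.05). Premir miR-10b replicate 2 had 29.5% of probes detected and stood apart, and the values here leave it out, after it was seen to differ. With the remaining 5 arrays 15 of 15176 features (0.0988%) were called, all higher in antimir-10b. Of the 56 features higher in antimir control, 33 (58.9%) were also higher in antimir-10b, 0 were called by limma (at an unadjusted p under 0.05, 4 in this direction and 3 in the opposite one) and their median was 0.03 (from -0.49 to 0.95), beside 50.4% positive over all features. Of the 43 lower in antimir control, 30 (69.8%) were also lower in antimir-10b, 0 were called by limma (at an unadjusted p under 0.05, 5 in this direction and 1 in the opposite one) and their median was -0.18 (from -0.71 to 0.58), beside 49.6% negative over all features. With all 6 arrays of that pair the directions matched in 30 of the 56 (53.6%, median 0.06) and in 21 of the 41 measured of the 43 (51.2%, median -0.03).

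The next values are from 11 arrays, without premir miR-10b replicate 2. In the genes called at 2-fold or more the premir control arrays lay below all others of the 11. The exceptions were ARFGAP2 and GSDMA, where they overlapped those of premir miR-10b. With the 11 arrays normalized together, AXL had 11.13, 11.18 and 11.19 in antimir control, 11.23, 11.02 and 11.22 in antimir-10b and 10.79 and 11.01 in premir miR-10b, against 8.65, 9.23 and 8.43 in premir control. The first 3 groups lay together and premir control lay more than 1.5 below each of their arrays. CHPF had 8.76, 8.44 and 8.47 in antimir control, 8.54, 8.10 and 8.59 in antimir-10b and 7.78 and 8.56 in premir miR-10b, against 6.41, 6.43 and 6.31 in premir control. TOR1A had 9.33 and 9.47 in premir miR-10b, within the range of the antimir control arrays (9.31 to 9.49), against 7.81, 7.99 and 7.81 in premir control. Its difference in the miR-10b pair was 0.01 ± 0.16 (SE). The same difference was 0.26 ± 0.17 for AXL, 0.24 ± 0.25 for CHPF, 0.04 ± 0.18 for SEC24C, 0.00 ± 0.17 for RRAGC, -0.10 ± 0.27 for WBP1L, -0.45 ± 0.19 for KRT80 and -0.45 ± 0.21 for CTDSP2, each with its SE and none called. These values depend on the array left out: with all 6 arrays of the miR-10b pair, premir miR-10b replicate 2 included, the differences were -0.38 for AXL, 0.34 for CHPF, -0.01 for SEC24C, 0.27 for TOR1A, -0.43 for RRAGC, 1.25 for WBP1L, -0.38 for KRT80 and -0.55 for CTDSP2, also uncalled.

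With the 5 arrays GSDMA, ANKRD52 and FAM3C had differences of the same sign in both pairs. GSDMA had 1.03 ± 0.17 in the control pair and 0.95 ± 0.28 in the miR-10b pair, and ANKRD52 had -0.88 ± 0.13 and -0.71 ± 0.18 (SE; neither called in the miR-10b pair). FAM3C had -0.78 ± 0.14 and -0.58 ± 0.19, also uncalled in the second. With all 6 arrays of the miR-10b pair they had 0.03, -0.13 and 0.82, so that GSDMA and ANKRD52 came near 0 and FAM3C changed sign. A limma test of whether the antimir minus premir difference differed between the pairs was added after the values were seen, on 11 arrays. It called 61 of 15571 features (0.392%), 18 more positive and 43 more negative in the control pair. The 56 and the 43 were chosen on control arrays that also enter this test, so counts among them are not independent of that choice. Of the 56 features higher in antimir control 15 were called in the test, and of the 43 lower 1 was called. The 15 include AXL (2.13 ± 0.26), CHPF (1.94 ± 0.28), KRT80 (1.78 ± 0.22) and TOR1A (1.54 ± 0.18), with adjusted p values of 0.00306, 0.0105, 0.00306 and 0.00306. The count of 61 was 17 without antimir control replicate 2, 34 without antimir control replicate 3, 33, 36 and 30 without premir control replicates 1, 2 and 3, 27 and 38 without antimir-10b replicates 1 and 2, and 266 and 19 without premir miR-10b replicates 1 and 3.

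**Figure D5:**
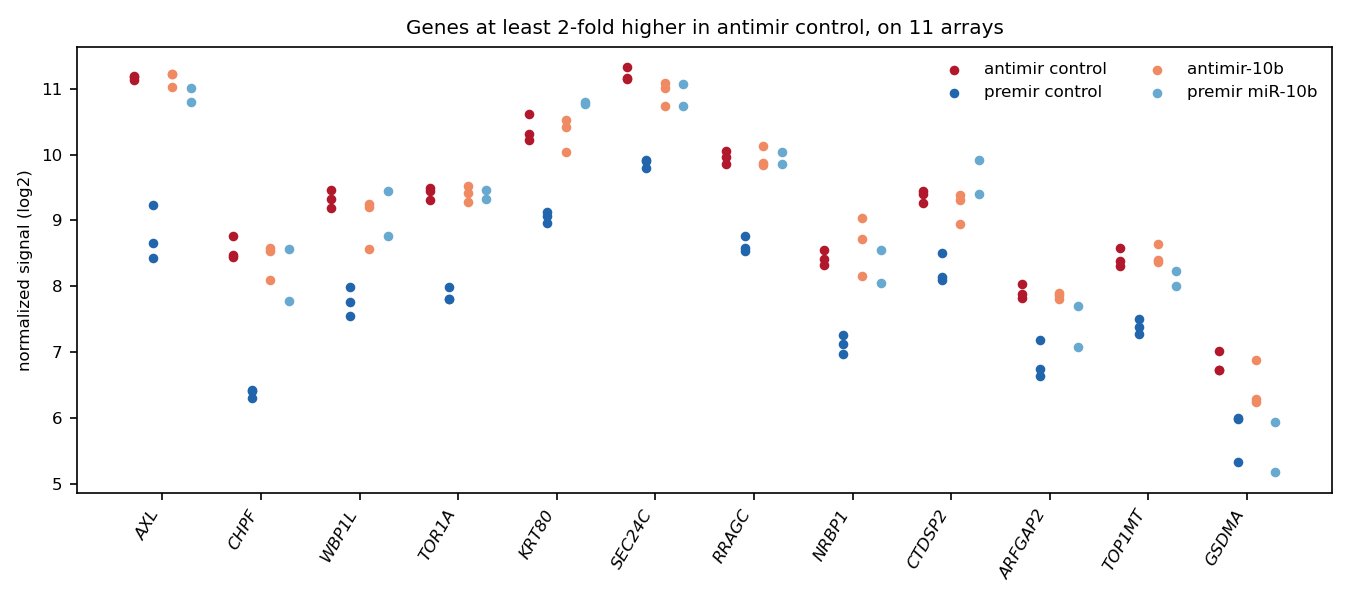
Normalized signal (y axis, log2, 11 arrays normalized together) of the 12 genes with a symbol that were called at 2-fold or more, with 1 point per array: red antimir control, blue premir control, orange antimir-10b and light blue premir miR-10b, which has 2 arrays. In AXL the blue points lie at 8.43 to 9.23 and all other points at 10.79 to 11.23; in GSDMA the light blue points, 5.18 and 5.94, lie among or below the blue ones.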

How the data were processed

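Total RNA from PANC-1 cells was extracted with Trizol and biotin-labelled with the Illumina TotalPrep kit, per the labels' protocols, and read on Illumina BeadChip arrays. The deposited table holds, per probe and array, a linear bead intensity that was not normalized between arrays and a detection p-value. The authors' other deposited values are the same intensity multiplied by 1 constant per array, from 0.943 to 1.08 over the 6 arrays. The labels name neither scanning software nor slides.

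In R 4.3.3, limma 3.58.1's neqc corrected the background from the detection p-values with an offset of 16, quantile-normalized the 6 arrays alone and took log2. Probes with a detection p under 0.05 on at least 3 arrays were kept. Each symbol was represented by its brightest probe, and every probe with no symbol or several remained a separate feature. Symbols came from the supplied platform annotation: 30113 probes had 1, 8 had several and 17110 had none, and 30074 of those with 1 matched RefSeq. LmFit and eBayes tested the groups two-sided, with Benjamini-Hochberg adjustment over all features and a call at an adjusted p under 0.05. "Measured" means past the detection filter. A fold against a group without detection is given against the detection limit of the arrays. The method was tested on simulated data.

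The rule for names took up to 15 called rises and 15 called falls whose arrays do not overlap, and up to 3 called members of each of 37 lists, or, in lists without calls, the 2 members of smallest p; further members are named for their role. The members and lists were chosen with earlier results of these data known. The main fit did not pair arrays by replicate number. The labels share these numbers between groups but do not say whether a number marks a shared batch. The alternatives were other normalizations, filters and variance models, a replicate block, and leaving out each array.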

Additional observations from a re-analysis of the deposited data

Results flagged for a closer look

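For 11 named genes the antimir minus premir difference differed between the control and miR-10b pairs, by a limma test on 11 arrays. These genes had been called on control arrays that also enter this test, so the test is not independent of their choice. The log2 difference of the control pair minus that of the miR-10b pair was 2.13 ± 0.26 (SE) for AXL, 1.94 ± 0.28 for CHPF, 1.78 ± 0.22 for KRT80, 1.65 ± 0.31 for WBP1L, 1.57 ± 0.25 for CTDSP2, 1.54 ± 0.18 for TOR1A, 1.33 ± 0.19 for RRAGC, 1.29 ± 0.20 for SEC24C and 1.11 ± 0.20 for SFT2D2. Adjusted p values ran from 0.00306 to 0.0323. In the control pair another, dimmer SFT2D2 probe differed by 0.03.

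CXCL1 and E2F7 had antimir minus premir differences of opposite sign in the pairs. CXCL1 had 0.80 ± 0.14 in the control pair and -0.49 ± 0.18 in the miR-10b pair, a difference of 1.29 ± 0.22 (SE, adjusted p 0.0199). With 11 arrays its signals were 7.71, 7.27 and 7.37 in antimir control and 6.65, 6.75 and 6.56 in premir control, and 6.96, 7.01 and 7.33 in antimir-10b and 7.68 and 7.50 in premir miR-10b. E2F7 had -0.63 ± 0.13 and 0.53 ± 0.20, a difference of -1.16 ± 0.23 (SE, adjusted p 0.0484). Its signals were 8.34, 8.69 and 8.55 in antimir control and 9.12, 9.24 and 9.13 in premir control, and 8.70, 8.48 and 8.97 in antimir-10b and 8.39 and 7.99 in premir miR-10b. With 2 arrays in premir miR-10b and no untransfected cells, the oligo class and miR-10b itself cannot be told apart in the second pair. With all 12 arrays the test of the difference called 0 features (496 at an unadjusted p under 0.05).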

How the results depend on the processing

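None of the 86 called genes with a symbol turned its direction in the alternatives it was measured in (20, or 19 for 9 genes), but the number of calls varied. For many alternatives the kept direction was fixed in advance. The groups did not overlap in any called feature, so leaving out 1 array could not turn a sign. The variance models and the fold minimum leave the difference itself unchanged. The 99 calls (56.6% higher) became 2 with all 12 arrays together (100% higher), 36 with 11 arrays (83.3%), 14 with the values scaled by the authors (100%), 23 with median centring (95.7%), 48 with an offset of 50 (68.8%), 24 without a filter (79.2%), 314 with array weights (49.4%) and 11 with a fold minimum of 1.2 (100%). They became 22, 20 of them higher, with the replicate number as a block, where the deviations of same-numbered arrays correlated at -0.09, -0.20 and 0.10. The other settings gave 80 to 112 calls, and leaving out 1 array gave 12 to 67. CHPF and SEC24C were called in 20 of 20 alternatives, AXL, TOR1A, WBP1L, RRAGC, NRBP1, KRT80, CTDSP2 and TOP1MT in 19, UHRF1 in 18, PGM2L1 and ARFGAP2 in 14, ANKRD52 in 13, FBXW7 in 12, SPAST in 5, and the list members SLC39A14 in 11, APAF1, BMPR2 and TXNRD1 in 9, CXCL1 in 8, DNAJB9 in 7, DCP2 in 6 and E2F7 in 4. The medians of 19 of the 31 functional lists changed sign without 1 array. In the miR-10b pair 0 calls became 15 with the 5 arrays and 16 without premir miR-10b replicate 2, and leaving out 1 array gave 0 to 16. The 61 differences became 0 with 12 arrays and 17 to 266 without 1 array. The uncalled markers COL1A1 (-0.14) and ESAM (-0.03) turned positive without 1 array, COL1A1 at 0.014 and 0.0057 without antimir control replicate 2 or premir control replicate 1 (range -0.41 to 0.014) and ESAM at 0.059 and 0.025 without antimir control replicate 3 or premir control replicate 1 (range -0.103 to 0.059). Causes were not tested. With 3 arrays a group, genes near the background are the least certain.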

Other observations

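The calls hold further genes, named here after their values were seen, with no list behind the choice. The plasma membrane SNARE genes STX2 and STX3 rose in antimir control by 0.87 ± 0.14 and 0.63 ± 0.12 (SE), RAB35, an endosomal recycling GTPase, by 0.67 ± 0.13, AP1B1, a clathrin adaptor subunit, by 0.57 ± 0.11, and DCTN5, a dynactin subunit, by 0.88 ± 0.13. The chosen lists of endosome and lysosome genes and of ER-Golgi traffic genes had 0 of 36 and 1 of 44 members called by limma. Over all features 0.636% were called. The calls of STX3, AP1B1 and RAB35 held in 5, 5 and 7 of 20 alternative settings, and those of STX2 and DCTN5 in 12. The iron reductase STEAP3 rose by 0.92 ± 0.14, POLR3E, an RNA polymerase III subunit, by 0.87 ± 0.11, the ubiquitin ligase gene RNF167 by 0.94 ± 0.11 and the translation factor subunit gene EIF2S3 by 0.71 ± 0.12. SLC45A4 was detected on 3 antimir control arrays and 0 premir control arrays and was at least 1.54-fold higher. It passed the filter only through antimir control, so its direction follows from the filter. Its call held in 12 of 19 settings.

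On the lower side, WEE1, the kinase that restrains CDK1, fell by 0.66 ± 0.13 (SE), COL5A2, a fibrillar collagen chain, by 0.69 ± 0.12, the deubiquitinase YOD1 by 0.68 ± 0.12 and FUT4, a fucosyltransferase, by 0.65 ± 0.13. Their calls held in 5 (WEE1), 6 (YOD1) and 4 (FUT4) of 20 settings and in 4 of 19 (COL5A2). In the miR-10b pair with 5 arrays WEE1, COL5A2 and YOD1 had 0.05 ± 0.21, 0.07 ± 0.30 and -0.13 ± 0.23, and FUT4 had -0.57 ± 0.17, all uncalled; with all 6 arrays they had 0.28, -0.08, -0.11 and -0.52.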
